A study of Homo sapiens with 8 samples.

Results

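The proteasome subunit genes described here are the 46 gene names made of PSMA, PSMB, PSMC, PSMD, PSME, PSMF or PSMG and a number, of 29534 names in the deposited expression table. They were chosen by name, with no threshold on a measured value, although earlier results of these data were known. They were measured in BEAS-2B, an established line of virus-transformed human bronchial epithelial cells. The 3 JunD libraries came from cells that received the plasmid pcDNA3.1-JunD for 12 h by lipid transfection, and the 3 empty-vector libraries from cells that received the same plasmid without the insert for 12 h. JunD is a transcription factor of the AP-1 family. The cells of all 6 libraries then had 24 h of exposure to CSE, cigarette smoke extract, at a concentration not given in the sources used here, so both groups were smoke-exposed and no unexposed library enters any comparison. JunD binding was mapped separately in cells given 8% CSE for 24 h, with 1 library from a JunD antibody and 1 input library.

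The proteasome is the protease that degrades ubiquitin-tagged proteins. Its barrel-shaped core has outer alpha rings, encoded by PSMA genes, and inner beta rings, encoded by PSMB genes. A regulatory particle caps the core, with a base that unfolds the substrate and a lid that removes the ubiquitin chain. Interferons induce a second set of catalytic beta subunits, PSMB8, PSMB9 and PSMB10, which take the places of PSMB5, PSMB6 and PSMB7 during assembly and give the immunoproteasome. Interferons also induce PSME1 and PSME2, which together form an activator ring that opens the core. Peptides cut by these particles feed antigen presentation on MHC class I molecules.

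All 5 immune members, the catalytic PSMB8, PSMB9 and PSMB10 and the activator pair PSME1 and PSME2, were higher in the JunD libraries, by 2.05-fold to 2.85-fold. PSMB5 and PSMB6, the constitutive counterparts of PSMB8 and PSMB9, were lower by 0.22 and 0.26 on the log2 scale, and PSMB7, the counterpart of PSMB10, did not pass the test. No lid gene passed the test, and of 9 base genes PSMC5 and PSMD2 were lower. Of all tested genes, 31.5% passed as higher and 14.7% as lower. A gene was called when its adjusted p (limma, Benjamini-Hochberg over all 13379 genes tested, two-sided) was below 0.05. Expression is given in RPKM, which divides the reads of a gene by its exon length and by the assigned reads of the library, and each log2 fold change was taken from log2(RPKM + 0.5).

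Of the 46 members, all of which passed the filter on low values and were tested, 8 were called higher, where 31.5% of all tested genes were. Another 5 were called lower, where 14.7% of all tested genes were, and 33 were not called. At least 2-fold higher were the 5 immune members, and 3.64% of all tested genes. The JunD and empty-vector libraries did not overlap, with JunD higher, for 14 members and 38.8% of all tested genes. They did not overlap, with JunD lower, for 8 members and 18.5% of all tested genes. The median log2 fold change was 0.04 over the members, 0.02 over the 41 members outside the immune group and 0.10 over all tested genes. Of the members, 25 lay below that median of all tested genes.

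JUND itself measured 70.3, 63.5 and 103 RPKM in the JunD libraries and 13.2, 10.5 and 10.6 RPKM in the empty-vector libraries, a log2 fold change of 2.71 (SE 0.19, limma adjusted p = 1.02e-04) in the direction of the labels, although reads from the plasmid and from the native gene are counted together. JunD replicate 3 stood apart from the other JunD libraries on the second principal component of all tested genes, which held 11.8% of the variance, at -22.2 beside 11.7 and 10.8. It was the highest JunD library for 31 of the 46 members, and for 55.6% of all tested genes. Library depth ran from 15967955 to 29617655 assigned reads. Of 9 bronchial epithelial markers in the table, KRT8 and KRT18 passed the filter and both fell, by 0.65 and 0.38 on the log2 scale, while KRT5, KRT19, EPCAM and CDH1 were at 0.224 RPKM or below in every library. The other markers, TP63, SCGB1A1 and MUC5AC, were also below the filter, at 0.861 RPKM or below, and were higher in the JunD libraries without overlap. That rested on few reads, summed over the JunD and the empty-vector libraries 20 and 0 for TP63, 18 and 7 for SCGB1A1, and 6 and 1 for MUC5AC. Of 14 leukocyte markers listed, 9 were in the table, and 9 of 9 were below the filter. They summed to between 0.503 and 0.697 RPKM in the JunD libraries and between 0.917 and 1.03 RPKM in the empty-vector libraries. PTPRC, the pan-leukocyte marker, was at 0 in every JunD library and had 3 reads summed over the empty-vector libraries. Single markers went both ways, with summed reads, JunD first, of 10 and 3 for ITGAM and 24 and 58 for CSF1R. These leukocyte values lay near the floor and rested on few reads. The 6 fibroblast markers in the table summed to between 2.97 and 3.52 RPKM in the JunD libraries and between 6.69 and 8.25 RPKM in the empty-vector libraries, and PDGFRB, the one that passed the filter, fell by 0.94 on the log2 scale. The 4 endothelial markers summed to 0.0718 RPKM or below in every library. The part of these marker differences in the results was not tested. In bulk RNA of this kind a larger share of expressing cells and more RNA per cell cannot be told apart.

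**Figure D1:**
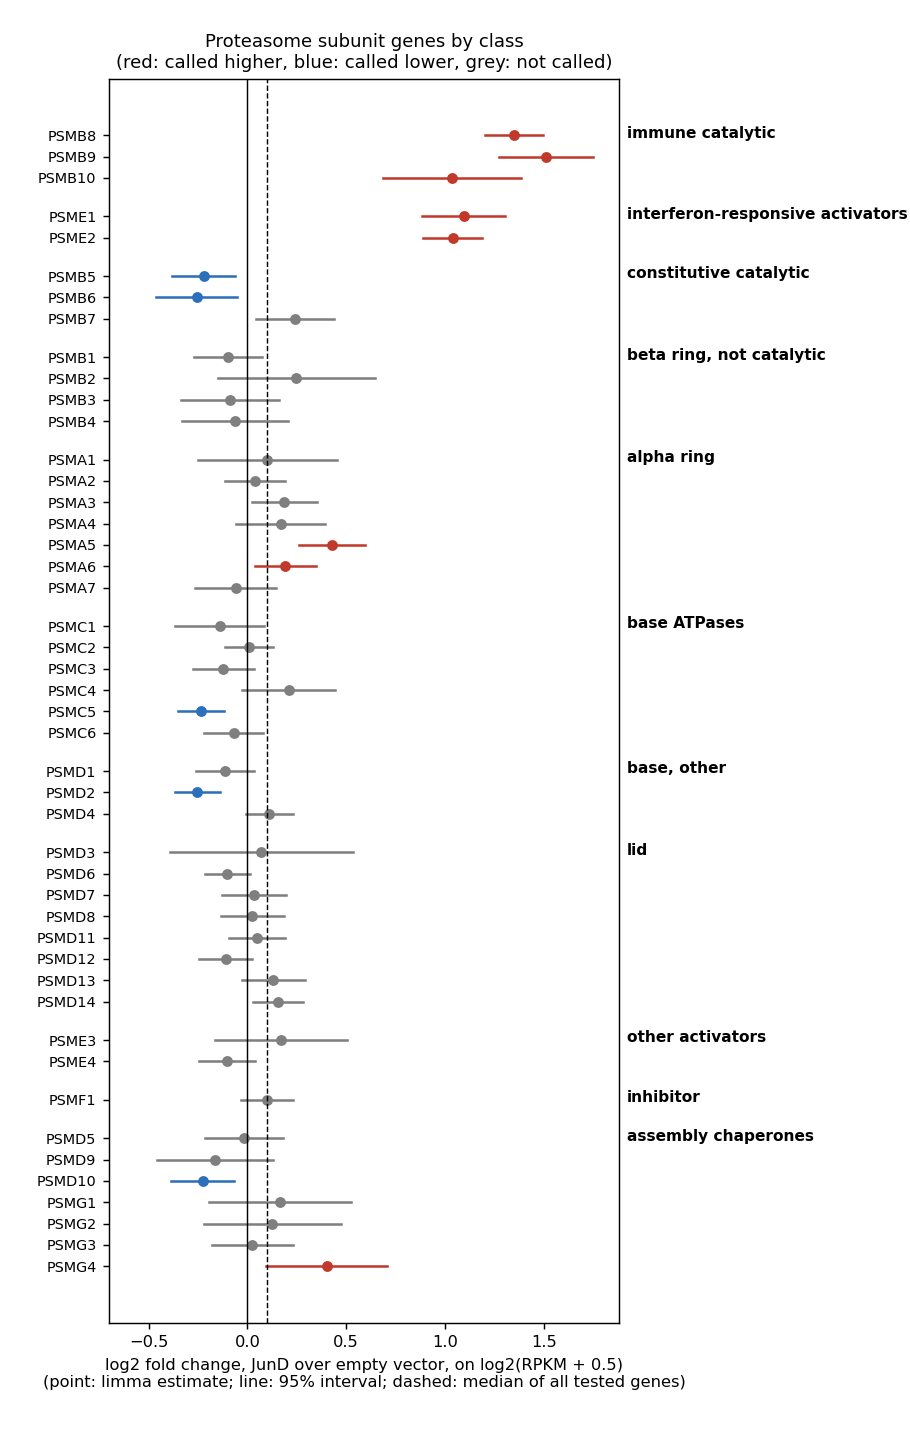
Log2 fold change of each proteasome subunit gene, JunD over empty vector, from limma on log2(RPKM + 0.5), with its 95% interval, grouped by place in the particle (3 libraries per group). The 5 immune members lie between 1.04 and 1.51, while the other called members lie between -0.26 and 0.43 and the dashed line marks the median of 0.10 over all tested genes.

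Interferon acts on such genes largely through the interferon-stimulated response element (ISRE), which is bound by complexes that contain IRF9 and by other factors of the IRF family. RefSeq promoter windows of GRCh38.p14, from 250 bases before to 50 after a transcription start, were available for 40 of the 46 members, and were searched on both strands for the ISRE core GAAANNGAAA. It stood in the windows of 4 of the 5 immune members and of 3 of the other 35 matched members, PSMA4, PSMB4 and PSMG4, where 4.38% of all 27305 genes with a window held it. The 30 bases around each match in the immune members are printed to show that their cores had the same letters, in 5′ to 3′ direction on the gene's own strand, with the core in capitals, or its reverse complement where it lay on the other strand.
PSMB8 (chr6:32844032-32844061, minus strand): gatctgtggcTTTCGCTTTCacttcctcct
PSMB10 (chr16:67936852-67936881, minus strand): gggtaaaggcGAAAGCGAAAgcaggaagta
PSME1 (chr14:24136189-24136218, plus strand): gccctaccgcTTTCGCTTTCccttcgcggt
PSME2 (chr14:24146619-24146648, minus strand): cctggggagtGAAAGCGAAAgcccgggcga

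In all 4 immune windows the core read GAAAGCGAAA on one strand. The first base of the match lay 4, 21 and 28 bases before a RefSeq start of PSMB8, PSMB10 and PSME2. For PSMB8 that was the start at 32844047, and the window of its other start, at 32844679, held no match. In PSME1 the first base of the match was base 6 of the transcript. PSMB9 had no match in its own window. PSMB9 and TAP1, a subunit of the peptide transporter, are transcribed away from each other from RefSeq starts 488 bases apart, and the window of TAP1 did hold the core, 360 bases before the PSMB9 start.
TAP1 (chr6:32853813-32853842, minus strand): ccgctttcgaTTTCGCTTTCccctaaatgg
Of the 3 matches outside the immune group, the one in PSMG4, a chaperone of core assembly, had the same letters.
PSMG4 (chr6:3258904-3258933, plus strand): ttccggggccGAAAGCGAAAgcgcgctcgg

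PSMB8, the immune subunit that carries the chymotrypsin-like site, lies on chromosome 6 at 32840717 to 32844703 of GRCh38, minus strand. It measured 48.5, 50.6 and 49.4 RPKM in the JunD libraries and 19.99, 17.8 and 19.6 RPKM in the empty-vector libraries. The lowest JunD library was above the highest empty-vector library, and the replicates lay close together in both groups. The log2 fold change was 1.35 (SE 0.06, n = 3 and 3, limma adjusted p = 1.59e-05). Antisense PSMB8-AS1 shares 21.2% of the exon length of PSMB8 and averaged 11.3 RPKM in the JunD libraries and 3.81 RPKM in the empty-vector libraries. No strand setting of the counting is stated in the sources used here, so reads of the pair cannot be told apart in the shared stretch.

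PSMB9, which takes the caspase-like place of PSMB6, lies beside it on the plus strand, where the outermost start in the table is 0.567 kb from that of PSMB8 and the end is at 32859585. Its values were 9.61, 9.07 and 11.5 RPKM with JunD and 3.45, 3.13 and 2.99 RPKM with the empty vector. The groups did not overlap, and the log2 fold change of 1.51 (SE 0.10, limma adjusted p = 8.54e-05) was the highest of the 46 members. PSMB10, which takes the trypsin-like place of PSMB7, lies on chromosome 16 at 67934502 to 67937087, minus strand. It measured 8.32, 8.55 and 11.5 RPKM with JunD and 4.84, 4.52 and 3.65 RPKM with the empty vector. Groups again did not overlap, JunD replicate 3 was the highest library, and the log2 fold change was 1.04 (SE 0.15, limma adjusted p = 0.00183). Without that library the log2 fold change of PSMB10 was 0.89. The gene CTC-479C5.12 shares 34.8% of the exon length of PSMB10, at 1.17 and 0.701 RPKM with JunD and the empty vector.

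PSME1, the alpha chain of the activator ring, lies on chromosome 14 at 24136158 to 24138967, plus strand, and was the most abundant immune member. It measured 293, 311 and 270 RPKM with JunD and 130, 127 and 151 RPKM with the empty vector. PSME2, the beta chain, lies at 24143362 to 24147570 on the minus strand of the same chromosome, and measured 38.7, 39.3 and 34.8 RPKM with JunD and 17.8, 17.8 and 18.4 RPKM with the empty vector. For both genes JunD replicate 3 was the lowest JunD library, the reverse of PSMB9 and PSMB10, and the groups did not overlap. The log2 fold changes were 1.09 (SE 0.09, limma adjusted p = 1.86e-04) for PSME1 and 1.04 (SE 0.06, limma adjusted p = 5.78e-05) for PSME2. The log2 ratio of PSME1 to PSME2 stayed between 2.80 and 3.004 in all 6 libraries, so the 2 chains moved together while their messages differed severalfold in level per exon length. The pseudogene PSME2P2 averaged 2.09 RPKM with JunD and 0.825 RPKM with the empty vector, and reads shared with PSME2 could have been split between them.

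**Figure D2:**
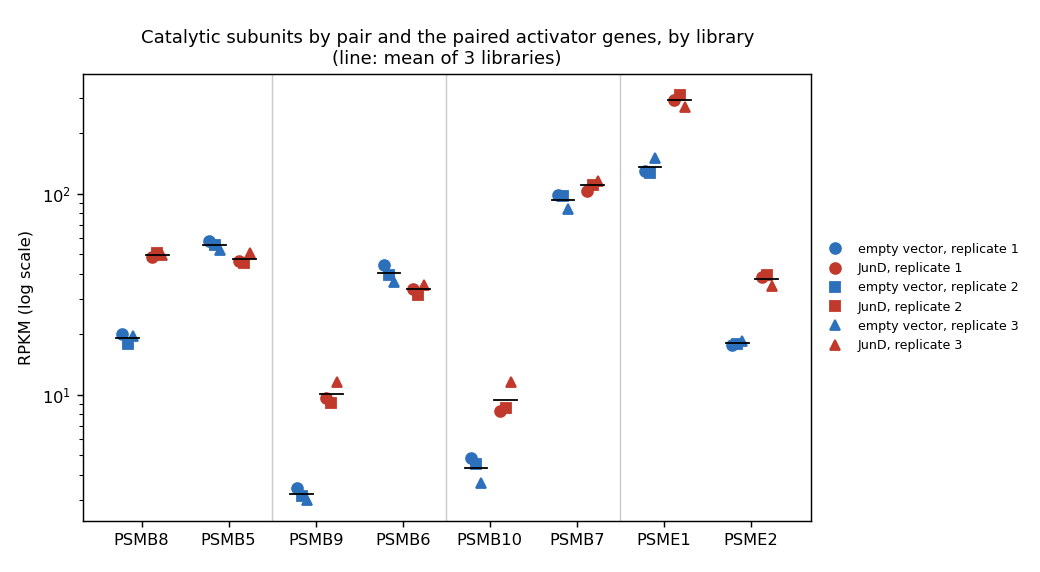
RPKM on a log scale in each library for the 3 pairs of immune and constitutive catalytic subunits and for PSME1 and PSME2, with a line at the mean of 3 libraries. PSMB8 rose from between 17.8 and 19.99 to between 48.5 and 50.6 RPKM, near the level of PSMB5, while PSMB10 stayed at 11.5 RPKM or below beside PSMB7 at 83.5 RPKM or above.

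The places filled by these subunits are shared in pairs, so each immune gene was set beside its constitutive counterpart within the same library. PSMB5, the constitutive chymotrypsin-like subunit, measured 46.1, 45.4 and 50.7 RPKM with JunD and 57.9, 55.7 and 52.4 RPKM with the empty vector. PSMB6, the caspase-like subunit, measured 33.5, 31.5 and 35.3 RPKM with JunD and 44.4, 39.5 and 36.5 RPKM with the empty vector. Both were lower without overlap, by 0.22 (SE 0.07, limma adjusted p = 0.0326) and 0.26 (SE 0.09, limma adjusted p = 0.0461) on the log2 scale. Neither call was stable. Each was lost, among other alternatives, when JunD replicate 1 or 2 or empty-vector replicate 1 or 2 was left out and when values were rescaled to TPM, in which every library sums to the same total, and the direction stayed negative. PSMB7, the trypsin-like subunit, was on the other side, at 104, 111 and 116 RPKM with JunD and 99.0, 97.3 and 83.5 RPKM with the empty vector. Its log2 fold change of 0.24 (SE 0.08) had a limma adjusted p of 0.0517 and was not called.

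Within libraries, the share of PSMB8 in the summed RPKM of PSMB8 and PSMB5 was 51.2%, 52.7% and 49.4% in the JunD libraries, and 25.7%, 24.2% and 27.2% in the empty-vector libraries. The mean share thus went from 25.7 ± 1.51% (SD, n = 3) to 51.1 ± 1.67% (SD, n = 3). For PSMB9 beside PSMB6 the share was 7.37 ± 0.183% (SD, n = 3) with the empty vector and 23.1 ± 1.30% (SD, n = 3) with JunD. For PSMB10 beside PSMB7 it was 4.43 ± 0.236% (SD, n = 3) and 7.87 ± 0.997% (SD, n = 3). The 3 places therefore differed in how much of the message was of the immune kind in both groups, with most in the PSMB8 place and least in the PSMB10 place.

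The log2 ratio of immune to constitutive subunit was higher in the JunD libraries by 1.57 for PSMB8 to PSMB5, by 1.77 for PSMB9 to PSMB6 and by 0.79 for PSMB10 to PSMB7. In each pair all 3 JunD libraries were above all 3 empty-vector libraries. The exact permutation test over libraries (two-sided, n = 3 and 3) gave p = 0.1 for each pair and 0.1 after adjustment over the 3 pairs, which is the smallest p that 3 libraries against 3 allow. The 0.79 for PSMB10 was made up of a rise in PSMB10 against a small, uncalled rise in PSMB7, and the other ratios of rises against falls. The level of PSMB9 depends on the exon length it is divided by, since the table counts 3072 exon bases for it and 1448 for PSMB6. By recovered reads, not divided by length, the mean PSMB9 share was 14.4% with the empty vector and 38.9% with JunD. These are shares of message and not of assembled particles, which were not measured.

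**Figure D3:**
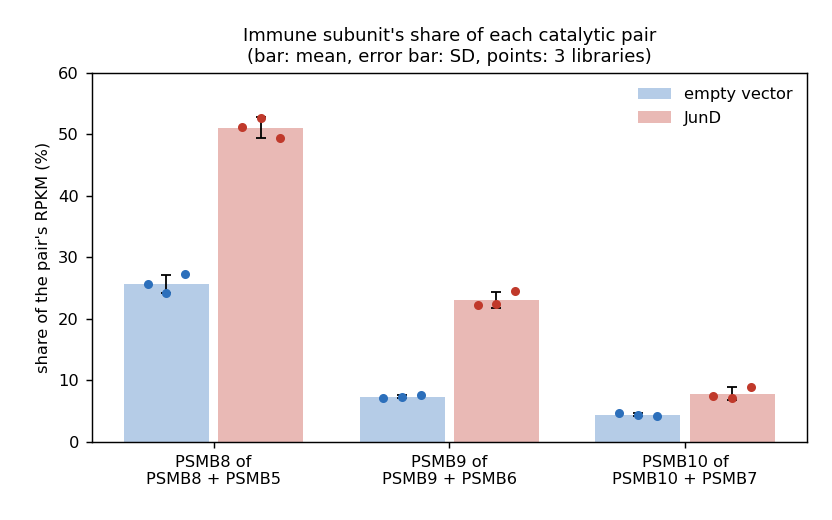
Share of the immune subunit in the summed RPKM of each catalytic pair, in percent, with bars at the mean, error bars at 1 SD and a point for each of 3 libraries per group. The PSMB8 share rose from 25.7% to 51.1%, the PSMB9 share from 7.37% to 23.1% and the PSMB10 share from 4.43% to 7.87%.

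The rest of the core moved little. Of 7 alpha ring genes, PSMA5 and PSMA6 were called higher, a share near the 31.5% of all tested genes. PSMA5 measured 20.3, 19.6 and 21.9 RPKM with JunD and 15.4, 16.0 and 14.2 RPKM with the empty vector, with no overlap, and its log2 fold change was 0.43 (SE 0.07, limma adjusted p = 0.00306). PSMA6 rose by only 0.19 (SE 0.06, limma adjusted p = 0.0471), and its call was lost under 11 of 16 alternatives, among them the removal of any single library. Uncalled were PSMA1, PSMA2, PSMA3, PSMA4 and PSMA7, at log2 fold changes from -0.06 for PSMA7 to 0.19 for PSMA3. PSMA7 was the most abundant member of all, at a mean of 333 RPKM with JunD and 347 RPKM with the empty vector. None of the 4 beta ring genes without a catalytic site was called. PSMB1, PSMB3 and PSMB4 were between -0.10 and -0.06, and PSMB2 was at 0.25 with an SE of 0.17, its JunD replicate 3 at 14.9 RPKM beside 9.59 and 10.1 RPKM.

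In the base, the ring of ATPases PSMC1 to PSMC6 threads the substrate into the core. PSMC5 measured 76.2, 75 and 72.5 RPKM with JunD and 87.7, 89.5 and 86.2 RPKM with the empty vector. It was lower without overlap, by 0.24 (SE 0.05, limma adjusted p = 0.00825) on the log2 scale, and FTSJ3 shares 19.5% of its exon length. The other 5 ATPase genes were not called, at log2 fold changes between -0.14 for PSMC1 and 0.21 for PSMC4. Reads of PSMC1 are the least certain of these, because NRDE2 shares 75.8% of its exon length and the table lists 10 PSMC1 pseudogenes.

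PSMD2, the large base subunit that docks ubiquitin shuttles, measured 162, 162 and 166 RPKM with JunD and 191, 197 and 195 RPKM with the empty vector. It fell by 0.25 (SE 0.05, limma adjusted p = 0.00553) on the log2 scale, again without overlap. The calls on PSMC5 and PSMD2 held in each fit that left out 1 library and were both lost with the replicate number as a block. The other large base subunit PSMD1, at -0.11, and the ubiquitin receptor PSMD4, at 0.11, were not called.

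None of the 8 lid genes was called, where 31.5% of all tested genes were called higher and 14.7% lower. Log2 fold changes ran from -0.11 for PSMD12 to 0.16 for PSMD14, the deubiquitinase that cuts the chain from the substrate, whose limma adjusted p was 0.0505. PSMD14 measured 17.5, 18.9 and 18.3 RPKM with JunD and 16.3, 16.7 and 16.0 RPKM with the empty vector, with no overlap. PSMD3 had the widest interval of the lid, from -0.39 to 0.53, and its JunD replicate 3 was at 40.8 RPKM beside 26.1 and 25.7 RPKM. Across all 17 base and lid genes the 95% intervals ended at or below 0.53, while those of the 5 immune members began at or above 0.68. The smallest immune change was therefore outside the interval of every base and lid gene, and no test of the 2 sets against each other was made.

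Genes that assist or regulate the particle were mixed. PSME3, which encodes a nuclear activator, was at 0.17 (SE 0.14) and PSME4, which encodes a further activator, at -0.10 (SE 0.06). Neither was called, nor was PSMF1, which encodes the proteasome inhibitor PI31, at 0.10 (SE 0.06). PSME1 and PSME2 were thus the only called members among the 4 PSME genes. PSMG4, the core chaperone, was called higher at 1.21, 1.33 and 1.80 RPKM with JunD and 0.964, 1.02 and 0.908 RPKM with the empty vector. Its log2 fold change of 0.40 (SE 0.13, limma adjusted p = 0.0403) was 0.28 without JunD replicate 3. The call was lost under 10 of 16 alternatives, counting the filter at 5 RPKM, which left PSMG4 untested. SLC22A23 shares 13.3% of the exon length of PSMG4, at 1.19 and 0.911 RPKM with JunD and the empty vector. PSMD10, a chaperone of base assembly also known as gankyrin, fell by 0.23 (SE 0.07, limma adjusted p = 0.0297), from 13.9, 15.8 and 13.8 RPKM to 12.4, 12.4 and 12.1 RPKM. That call was lost under 6 of 16 alternatives. The chaperone genes PSMG1, PSMG2, PSMG3, PSMD5 and PSMD9 were not called, at log2 fold changes between -0.17 and 0.17.

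Summed over the 41 members outside the immune group, expression was 1921, 1931 and 2013 RPKM with JunD and 2038, 2035 and 1924 RPKM with the empty vector. Those sums overlapped. The 5 immune members summed to between 377 and 419 RPKM with JunD and between 171 and 196 RPKM with the empty vector, most of it PSME1.

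How values are scaled between libraries sets how many of the small changes are called. With deposited RPKM 8 members were higher and 5 lower; with TPM 15 were higher and 2 lower, with median-of-ratios scaling 6 and 10, and with quantile normalization 6 and 11. The median log2 fold change over all tested genes was 0.10, 0.18, -0.02 and -0.03 in these fits. All 5 immune members were called higher in each of them and under the other alternatives, and PSMA5 was as well. The lowest value over all alternatives was 1.22 for PSMB8, 1.36 for PSMB9, 0.89 for PSMB10, 0.97 for PSME1 and 0.91 for PSME2. Relative to the median of all tested genes the RPKM changes were 1.25 for PSMB8, 1.41 for PSMB9, 0.94 for PSMB10, 0.995 for PSME1 and 0.94 for PSME2.

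Regulators of the immune subunits were measured in the same libraries. IRF9, the DNA-binding subunit of a complex that binds the ISRE, measured 47.2, 50.3 and 45.5 RPKM with JunD and 5.29, 4.37 and 4.59 RPKM with the empty vector. Its log2 fold change was 3.20 (SE 0.08, limma adjusted p = 1.20e-06), though an overlapping gene record shares 48.4% of its exon length and was also called higher. STAT2, which acts together with IRF9, was called higher at 1.86 (SE 0.07), as were IRF1 at 1.37 (SE 0.05) and NLRC5, the transactivator of MHC class I genes, at 0.84 (SE 0.07). CIITA, the transactivator of MHC class II genes, was below the filter at between 0.298 and 0.443 RPKM in all libraries.

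The promoter letters shared by the immune members, GAAAGCGAAA, chosen after the matches were seen, stood in the windows of 34 genes in all, or 0.125% of those with a window, and 5 of the 34 were members. Of the 23 such genes that were tested for expression, 19 were called higher, where 31.5% of all tested genes were. By at least 2-fold 11 of them were higher, where 3.64% of all tested genes were. The 19 include all 5 members, and the 11 include PSMB8, PSMB10, PSME1 and PSME2, whose windows gave the letters. These counts are a description of genes picked for sequence that the members had pointed to. Other motifs were spread differently. The GAS core TTCNNNGAA, a second interferon response motif, stood in 9.38% of all genes, in PSMB8 and in 6 of 35 members outside the immune group. The antioxidant response core TGACNNNGC, bound by NFE2L1 and NFE2L2, stood in 16.1% of all genes, in 12 of those 35 members and in PSMB9, PSME1 and PSME2. The AP-1 core TGANTCA stood in 9.37% of all genes, in no immune member, and in PSMC5, PSMD2 and PSMD9. The CCAAT box stood in 39.7% of all genes, in 18 of those 35 members and in PSMB9. A match says only that the letters are in the window.

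Downstream of the proteasome, 11 of 13 genes of class I peptide loading were called higher and none lower, with a median log2 fold change of 1.19, beside 31.5% of all tested genes called higher and a median of 0.10. Those with the smallest p were B2M, the invariant chain of class I molecules, at 1.98 (SE 0.07), the transporter subunits TAP1 at 1.77 (SE 0.09) and TAP2 at 1.32 (SE 0.06), and the trimming peptidase ERAP2 at 1.19 (SE 0.06). CALR and CANX, general chaperones of the endoplasmic reticulum, were the 2 not called. An overlapping gene record shares 32.3% of the exon length of TAP2 and was also called higher.

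Factors that work with the proteasome were read from lists of related genes. Of 12 proteasome factors outside the name rule, 4 were called higher and none lower, a share near the 31.5% of all tested genes called higher, and the median of 0.16 stood beside 0.10 over all tested genes. They were POMP, the core assembly factor, at 0.40 (SE 0.07), ZFAND5, a proteasome-binding activator, at 0.47 (SE 0.07), PITHD1 at 0.43 (SE 0.11) and the deubiquitinase UCHL5 at 0.26 (SE 0.07). POMP measured 36.5, 37.8 and 34.3 RPKM with JunD and 26.5, 29.3 and 26.1 RPKM with the empty vector, with no overlap. Of 7 shuttle and unfoldase genes tested, UBQLN2 rose by 0.34 while the unfoldase VCP fell by 0.33 and UBQLN4 fell by 0.31. Of all tested genes, 14.7% were called lower. The NFE2L1 pathway restores proteasome gene expression when the particle is inhibited. Of its 6 listed genes 3 were called higher, beside the 31.5% of all tested genes. They were NFE2L1 at 0.62, NFE2L2 at 0.50 and NGLY1 at 0.23. None was called lower, although SEL1L was at -0.12 with JunD lower without overlap. NFE2L1 measured 115, 115 and 109 RPKM with JunD and 72.5, 70.8 and 76.1 RPKM with the empty vector. Among ubiquitin genes, the polyubiquitin gene UBB fell by 0.45 and the ubiquitin fusion gene RPS27A fell by 0.25. UBB went from 579, 590 and 559 RPKM to 430, 419 and 419 RPKM, with no overlap between the groups.

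The genes around the immune members were examined next. All tested protein-coding genes whose annotated span came within 50 kb of the span of a member were taken, chosen by position alone, so that a start can lie farther away. Around PSMB8 and PSMB9 on chromosome 6 these were TAP1 and TAP2, and both were higher. Around PSME1 and PSME2 on chromosome 14, IRF9, RNF31, PCK2 and TM9SF1 were higher, DCAF11 and IPO4 lower, and EMC9 not called. RNF31, a subunit of the linear ubiquitin ligase, starts 0.887 kb from PSME2 and was at 0.72 (SE 0.08), while DCAF11 was at -0.32 (SE 0.05). RNF31 and PSME2 share 216 exon bases, where reads of the pair cannot be told apart. Around PSMB10, PSKH1 was higher at 0.40 (SE 0.10), and EDC4, LCAT and SLC12A4 were not called. Called higher were thus both tested chromosome 6 neighbours, 4 of 7 on chromosome 14 and 1 of 4 around PSMB10, where 31.5% of all tested genes were called higher, and 2 of the 7 were lower, where 14.7% were.

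**Figure D4:**
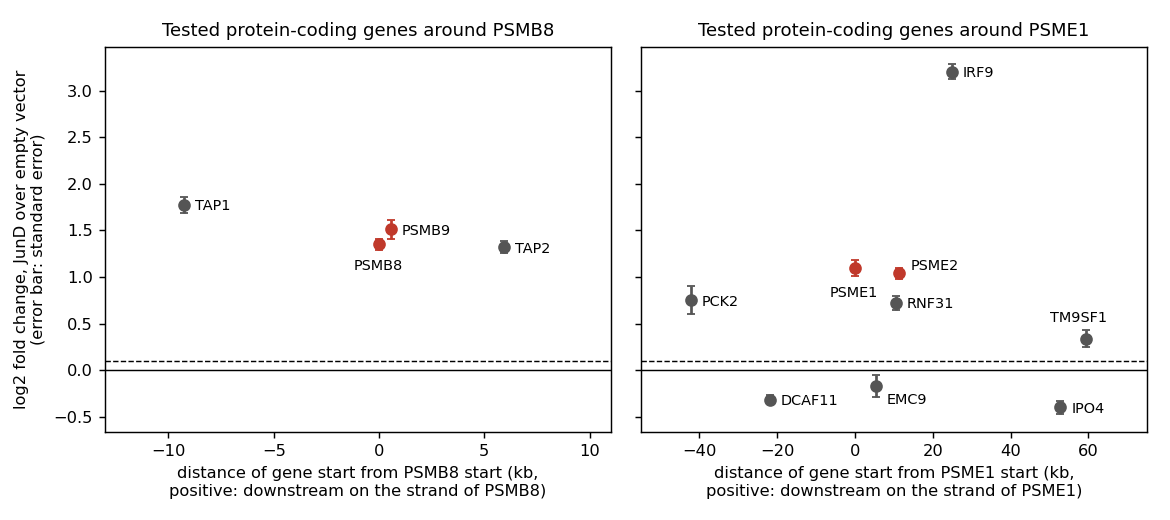
Log2 fold change, JunD over empty vector, with its standard error, against the distance in kb of each gene's start from PSMB8 (left) or PSME1 (right), for tested protein-coding genes whose span comes within 50 kb of that of an immune member, with members in red and the dashed line at the median of all tested genes. TAP1 and TAP2 lie beside PSMB8 and PSMB9 at 1.77 and 1.32, while the genes around PSME1 and PSME2 run from -0.40 for IPO4 to 3.20 for IRF9.

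Binding of JunD near the members was read from the authors' deposited peak list, which holds 61360 peaks of 1 JunD library against 1 input library, with no replicate. A peak lay within 1 kb of the outermost annotated start of 5 of the 46 members, PSME1, PSMB1, PSME3, PSMF1 and PSMA1, where 7.43% of 13356 tested genes with a position had one. Within 10 kb there was a peak for 19 members, where 40.1% of those genes had one. PSME1 was the only immune member in the first count, with a peak 130 bases from its start, at chr14:24136288-24136674, of fold enrichment 3.51 and q-value 0.178 in the authors' list. The nearest peak to PSMB8 lay inside the gene, 2.14 kb from its start, with fold enrichment 3.70 and q-value 0.142. The nearest peak to PSMB10 was 29.7 kb away. Of peaks with a q-value below 0.05, 2.60% of the list, none lay within 10 kb of a member start. Such a peak lay that near for only 1.80% of the 13356 tested genes. None of the RefSeq promoter windows of the 40 matched members held a peak, and no share over all genes was taken for such windows. These peaks were mapped in cells without the JunD plasmid, as far as the labels say.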

How the data were processed

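RNA was measured in 3 JunD and 3 empty-vector libraries of BEAS-2B cells, and JunD binding in 1 antibody and 1 input library. The authors deposited RPKM values for 29534 gene names with exon coordinates, and a peak list with a position, a fold enrichment ratio, a p-value, a q-value and a pileup signal for each peak. The submitters' processing notes name Trimmomatic 0.36, STAR 2.5.3a, Subread 1.5.1 with featureCounts, bedtools 2.25.0 and MACS2 2.1.1, without saying what each was used for, and the build GRCh38. They give no annotation release. RPKM times exon length was a whole number of reads for 100% of values within 0.01 read, so assigned reads were recovered.

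The 13379 genes that averaged 1 RPKM or more over the 6 libraries were tested on log2(RPKM + 0.5) with limma 3.58.1 (R 4.3.3) and its intensity trend. Fold changes on this scale understate the change of low genes. The script was tested on simulated data. Nothing in the labels says that the libraries of a group are separate cultures. The p-values then cover only their spread, which may be technical. The 3 ratios within libraries were tested by exact permutation. Named genes were every member, JUND, regulators, and of each other list the called members with the 4 smallest p; neighbours were taken by position, and CALR, CANX, cell type markers, pseudogenes and overlapping genes were named after their values were seen. Some genes of the related lists are not reported here. Members and lists were chosen with earlier results of these data known. PSMA8 and PSMB11 were not analysed here. Alternatives were other pseudocounts, filters and scalings, no trend, a replicate block and leaving out each library; limma's voom on recovered reads and the share by reads were added after seeing the data.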

Additional observations from a re-analysis of the deposited data

How the results depend on the processing

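Of 16 alternatives, all called the 5 immune members higher. Over the 13 called members, 164 of 207 values kept their call and direction, 43 kept the direction without the call and none reversed. Of 527 values of uncalled members, 25 gained a call and 36 changed sign without one.

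Members called higher went from 8 to 15 with TPM. Members called lower went from 5 to 2 with TPM, 10 with median-of-ratios scaling, 3 with no expression filter, 11 with quantile normalization, and between 2 and 5 when 1 library was left out. Of the constitutive catalytic genes, 1 was called higher with TPM, with a filter at 5 RPKM and with voom. Those called lower went from 2 to 0 with TPM and with no expression filter and 1 with no intensity trend, and were between 0 and 2 when 1 library was left out. Base genes called higher went from 0 to 2 with TPM, and those called lower from 2 to 4 with quantile normalization. Lid genes called higher went from 0 to 2 with TPM and 1 with a filter at 5 RPKM and with voom, and those called lower from 0 to 2 with median-of-ratios scaling and with quantile normalization. Alpha ring genes called higher went from 2 to 1 with median-of-ratios scaling, no expression filter, no intensity trend and quantile normalization, and were between 1 and 2 when 1 library was left out. The count of 5 members with a peak within 1 kb went to 10 within 5 kb, 19 within 10 kb and 0 with q-values below 0.05. The cause of these shifts was not tested.

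Deviations of same-numbered libraries from their group means correlated at -0.17, -0.08 and -0.38. With 3 libraries a group such deviations are tied to one another, so they cannot settle whether the replicate numbers pair the libraries. With the replicate number as a block, members called lower went from 5 to 0, base genes called lower from 2 to 0, constitutive catalytic genes called lower from 2 to 0 and alpha ring genes called higher from 2 to 1, and all 5 immune members were still called. The calls on PSMC5 and PSMD2 were lost in this fit alone. For the 3 catalytic pairs the exact permutation p within replicate numbers was 0.25, the smallest that 3 pairs allow.

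With 3 libraries a group, the changes of PSMB7 and PSMD14, at limma adjusted p of 0.0517 and 0.0505, could not be settled.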
